A study of Mus musculus with 27 samples.

Results

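The regions described here are the windows around 8 clusters of imprinted genes in the Hi-C map of C2C12 cells, a myoblast line derived from mouse muscle. They were set by position on the mouse genome build mm9 and not by contact values, although earlier results of these data were known. Whole 40 kb bins were taken from chr7:148720001-151520000 (H19, Igf2 and Kcnq1ot1), chr12:109720001-111720000 (Dlk1 and Meg3), chr17:11920001-13920000 (Igf2r), chr7:5600001-7640000 (Peg3), chr11:10920001-12920000 (Grb10), chr6:3720001-5720000 (Peg10), chr6:29720001-31720000 (Mest) and chr2:173120001-175120000 (Gnas). This gave 421 bins of the 61816 autosomal bins and of the 66382 bins in all.

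The series has 27 samples, of which 2 are Hi-C libraries of C2C12 cells with the genotype WT, and the other 25 are RNA, ChIP and input libraries of mouse embryonic fibroblasts that were not used here. The labels give no treatment or time for the C2C12 samples, and no other group was compared with them. The extraction text given for these samples speaks of embryonic fibroblasts as the source of the Hi-C libraries, whereas title, source and cell line name C2C12, which was followed here. In Hi-C, crosslinked chromatin is cut, here with HindIII, and ends that lie close together in the nucleus are ligated and sequenced as read pairs, so that the number of read pairs joining a pair of bins measures their contact. The 2 replicates were pooled into 1 map by the authors, so that no value below has a spread between replicates and none was tested. C2C12 is 1 established line, the reads do not separate the maternal from the paternal copy, and a contact map holds no marker genes against which the cell type could be checked.

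The map held 23990818 read pairs, of which 88.1% joined bins of the same chromosome. The median bin of the imprinted windows held 664 read pairs and the median autosomal bin 624.5. In the windows 12 bins held under 100 read pairs, 7 of them in the window of Peg3, and 1 held none. Another limit was that 4 bins, 3 around Peg3 and 1 around Gnas, took over 50% of their corrected signal from 1 bin pair, so that their other contacts were scaled down. Intervals below are exact 95% Poisson intervals on the read pairs, which cover counting error only.

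Imprinted genes are expressed mainly from the copy inherited from one parent. They lie in clusters, and a cluster is governed by an imprinting control region that is methylated on the copy of one parent. In the H19 and Igf2 cluster this region binds the zinc finger protein CTCF on the unmethylated copy, where it acts as an insulator, and in the Kcnq1 and Igf2r clusters the promoter of a long noncoding RNA, Kcnq1ot1 or Airn, lies in it. CTCF also marks many borders of topologically associating domains (TADs), the stretches of chromosome within which contacts are more frequent than with their neighbours, and pairs of CTCF sites that point towards each other often stand at the bases of chromatin loops.

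Sequences from the bins of distal chr7 described below are shown first, chosen with the contacts of these bins known, and their relation to the contacts was not tested. The pattern CCGCGNGGNGGCAG, the core of the CTCF sites upstream of H19, was searched on both strands of the autosomes and had 57 matches, in 0.0841% of the autosomal bins. On chr7 there were 9, and the 3 that lay in the imprinted windows were all between H19 and Igf2, 2166 to 3904 bases upstream of the H19 start, on the minus strand. They are printed 5′ to 3′ with 10 bases on each side and the core in capitals.

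chr7:149766204-149766237, minus strand: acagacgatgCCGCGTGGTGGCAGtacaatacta

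chr7:149766659-149766692, minus strand: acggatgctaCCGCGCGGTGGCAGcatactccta

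chr7:149767929-149767962, minus strand: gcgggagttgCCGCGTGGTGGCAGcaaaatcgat

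The common CTCF core consensus of 14 letters had 6320 matches on the autosomes, in 9.08% of the bins. The plus strand matches in the bins that H19 contacted most (described below) are shown here, with the consensus in capitals. They point towards the minus strand sites upstream of H19, and the bin of the first also holds 1 minus strand match.

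chr7:149502607-149502640, plus strand: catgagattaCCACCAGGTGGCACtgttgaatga

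chr7:149520334-149520367, plus strand: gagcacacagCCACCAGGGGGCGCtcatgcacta

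The next set is from the bins with the start of Kcnq1, which holds 1 plus strand match, and with the start of Cdkn1c, whose minus strand matches are shown because these bins also had a high contact. The bin of Cdkn1c holds in addition 1 plus strand match. A match is a run of letters and not a measured binding site.

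chr7:150280804-150280837, plus strand, bin of the Kcnq1 start: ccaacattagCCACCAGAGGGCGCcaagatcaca

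chr7:150649973-150650006, minus strand, bin of the Cdkn1c start: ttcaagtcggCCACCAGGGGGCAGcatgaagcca

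chr7:150652391-150652424, minus strand, bin of the Cdkn1c start: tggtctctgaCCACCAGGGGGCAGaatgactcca

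The GENCODE annotation of mm9 used here placed 43 of the 45 imprinted genes, which were listed by hand. Whether each of them is imprinted in C2C12 cells was not measured. Kcnq1ot1, the noncoding RNA that runs antisense within Kcnq1, was placed by an exact match of its RefSeq promoter (GRCm38.p6) to mm9, at chr7:150482403-150482702 on the minus strand, and Zfp264 was not placed. The promoter of Kcnq1ot1 is printed 5′ to 3′ with the 50 bases after the start in capitals.

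Kcnq1ot1 promoter: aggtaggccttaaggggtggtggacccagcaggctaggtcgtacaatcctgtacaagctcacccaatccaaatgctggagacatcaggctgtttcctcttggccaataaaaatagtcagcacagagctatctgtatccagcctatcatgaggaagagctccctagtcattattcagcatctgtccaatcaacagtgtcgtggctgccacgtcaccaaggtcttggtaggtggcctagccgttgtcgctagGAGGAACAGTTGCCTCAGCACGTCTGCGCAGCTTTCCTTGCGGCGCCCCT

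Insulation was scored from the contacts that pass over each bin between its flanks of 480 kb, as the log2 of their interquartile mean relative to the average of the chromosome. A low score marks a place that few contacts cross. A boundary is a minimum of the score along the chromosome, and its strength is the range, next to it, of a delta vector that compares the scores of the 320 kb on each side. On the autosomes 2102 of 59132 scored bins were boundaries (3.55%). In the imprinted windows 12 of 419 scored bins were boundaries (2.86%). Their median strength was 1.78 beside 1.69 on all autosomes, with a range from 0.357 to 4.93.

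The loci that name the windows lay away from the boundaries. None of the 9 starts (H19, Kcnq1ot1, Meg3, Igf2r, Peg3, Grb10, Peg10, Mest and Gnas) was within 1 bin of a boundary, compared with 10.7% of the scored autosomal bins, and a count of 0 of 9 allows a share of up to 33.3%. The distance to the nearest boundary ranged from 240 kb at H19 to 1240 kb at Gnas. Of the 44 placed genes, 2 were within 1 bin of a boundary (4.55%), Tnfrsf23 and Osbpl5, both at the far end of the Kcnq1ot1 cluster.

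The scores at 8 of the 9 loci were above the autosomal median of -0.06, which 50% of the scored bins exceed by definition. Mest, a member of the hydrolase fold family, had the highest score of 1.25, and 99.2% of the scored autosomal bins were lower, but with the 800 kb square it had 0.34, below Peg10 with 1.65, Meg3 with 1.56, Gnas with 1.03 and Grb10 with 0.71. Peg10, a gene derived from a retrotransposon, had 1.02 and Meg3, a maternally expressed noncoding RNA, 1.01. The score was 0.86 at Peg3, 0.61 at Kcnq1ot1, 0.61 at Gnas, 0.49 at H19 and 0.43 at Grb10. Over all settings the lowest values were -0.13 at Peg3, -0.10 at H19, 0.03 at Kcnq1ot1, 0.06 at Grb10, 0.22 at Gnas, 0.34 at Mest, 0.56 at Meg3 and 0.63 at Peg10. Igf2r, the receptor that clears the growth factor Igf2, was the exception with -0.11, and 47.3% of the bins were lower, but its score ran from -0.73 to 0.27 over the other settings. The squares behind these values held 565 (Peg3) to 1222 (Mest) read pairs. Of all 44 placed genes, 41 had a score above the autosomal median, but genes of a cluster share squares and are not separate observations.

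**Figure D1:**
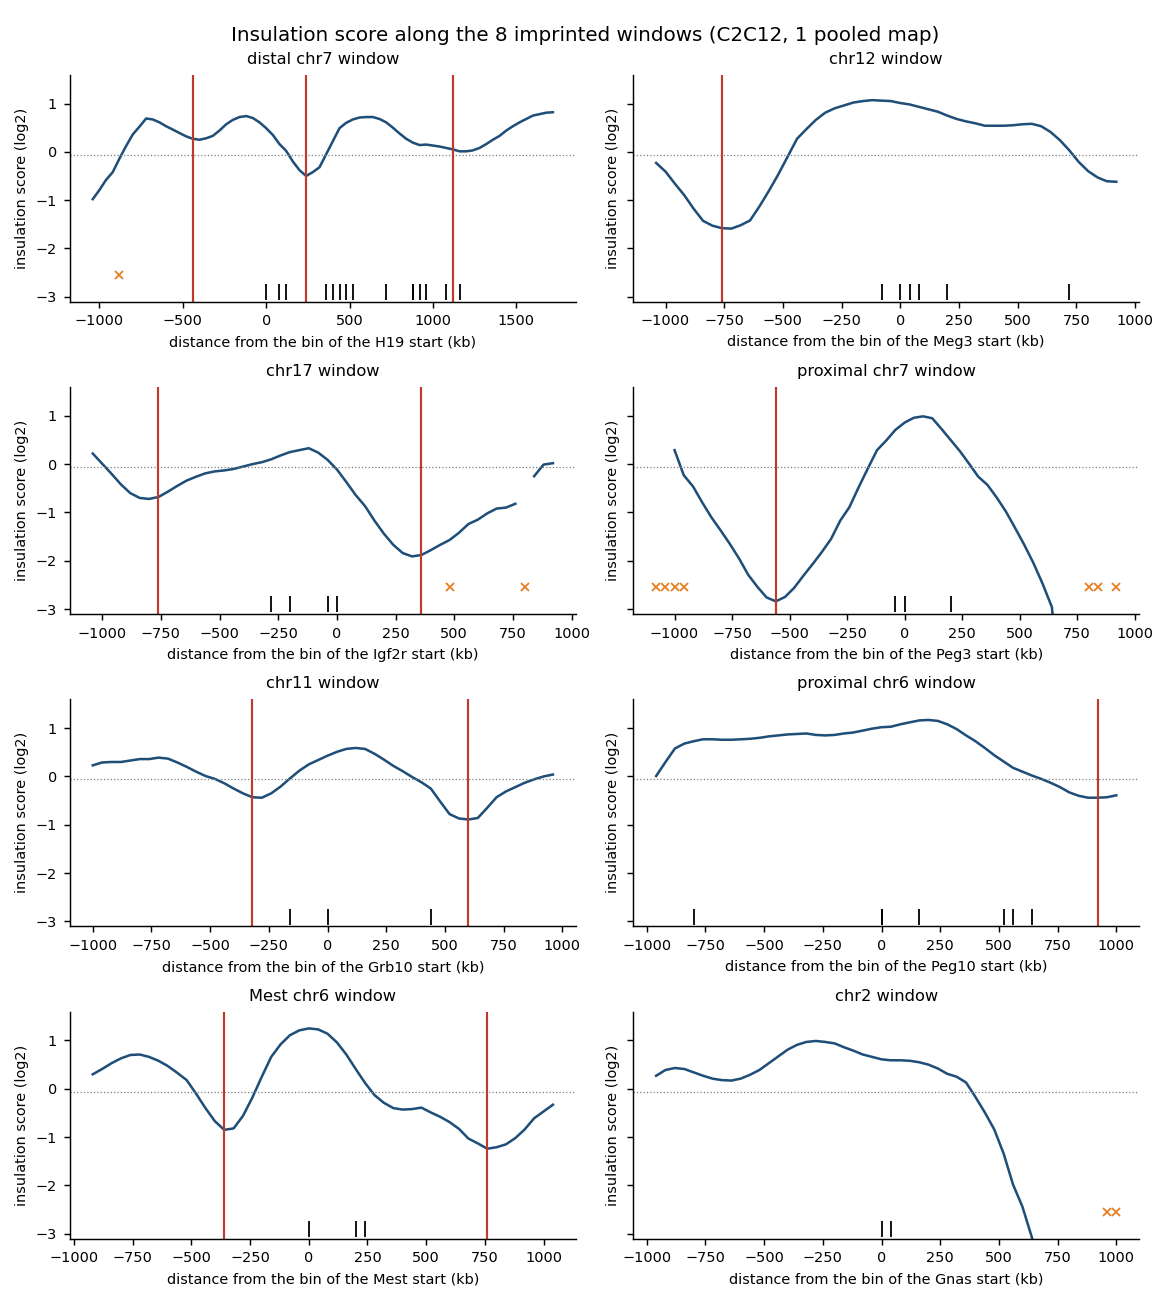
Insulation score (y axis, log2) of the 40 kb bins of each window against the distance from the bin of the named gene's start (x axis, kb). Red lines mark the 12 called boundaries, black ticks the starts of the listed imprinted genes, orange crosses bins with under 100 read pairs, and the dotted line the autosomal median of -0.06; the curves of the Peg3 and Gnas windows leave the axis and fall to -12.18 and -6.75. The starts of the genes sit between the boundaries, and in distal chr7 they lie on both sides of the boundary 240 kb from H19.

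In 7 of the 8 windows no boundary fell between the first and the last placed imprinted gene of the window. The exception was distal chr7, where the cluster of H19 and the cluster of Kcnq1ot1 were in different domains. How often bins this far apart share a domain was counted over all autosomes for comparison. For the 1160 kb between H19 and Osbpl5 in distal chr7 the share was 11.7%, so that a boundary between bins at this distance is usual. The share was 5.27% at the 1440 kb between Tfpi2 and Asb4 in the Peg10 cluster, 28.9% at the 800 kb between Dlk1 and Dio3, 43.7% at the 600 kb from Ddc to Cobl, 71.6% at the 280 kb of the Igf2r cluster, and 75.1% at the 240 kb of the Mest cluster and, by the GENCODE start of Usp29, of the Peg3 cluster. Gnas and Nespas start in adjacent bins, 40 kb apart, where the share was 92.9%. No bin lies between theirs, so that the lack of a boundary there tells nothing. The same holds for the Peg3 cluster by the RefSeq start of Usp29, described below. With a square of 320 kb in place of 480 kb, a boundary fell between Mirg and Dio3 and another between Tfpi2 and Sgce, so that clusters in 3 windows were crossed.

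In distal chr7 the boundary that separates the clusters was in the bin chr7:150000001-150040000, 240 kb beyond H19 and between Ins2 and Ascl2. The nearest protein-coding gene was Gm6471. Its strength of 1.69 was equal to the autosomal median of 1.69. A boundary between Ins2 and Ascl2 was called under each of the 10 other settings for boundaries, with a strength from 0.669 (square of 800 kb) to 1.90 (no smoothing). Among these settings, the minimum strength of 0.1 lay below the strength of every window boundary and could not remove any. Contacts across the bin, up to 480 kb apart and compared with the mean at each distance, were 0.623 of those within its flanks (interval 0.561 to 0.690, 366 read pairs across). At autosomal boundaries the median of this ratio was 0.705, and at scored bins sampled evenly along the autosomes it was 1.03. The ratio and the boundary call come from the same contacts, so that the ratio describes the boundary and does not support it.

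On the H19 side the domain ran from 149320001 to 150000001 and measured 0.68 Mb, and 9.99% of the 2083 autosomal domains were smaller. It held H19, Igf2, the paternally expressed growth factor, and Ins2, the insulin gene. Contact within it was 1.28 times the mean at the same distances (1.22 to 1.35), beside a median of 1.13 over the autosomal domains, and 76.5% of these were lower. The other domain ran to 150880001, measured 0.88 Mb, and held 11 of the listed genes from Ascl2 to Tnfrsf23. Contact within it was 1.2 times the mean (1.14 to 1.27), with 63.6% of the domains lower, and contact between both domains was 0.760 times the mean (0.706 to 0.816, 747 read pairs). Across the outer edges contact was closer to the mean. It was 1.06 times (0.986 to 1.13) between the H19 domain and the stretch before it. Between the Kcnq1ot1 domain and the stretch after it, it was 0.933 times (0.857 to 1.01).

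The outer edges of these domains had lower strengths with the reported settings. At 149320001 the strength was 0.357, with 6.04% of autosomal boundaries weaker, the score of 0.27 was above the autosomal median, and no boundary was called there with the 800 kb square or with absent bin pairs left out. The bin held the start of Gm4553. At 150880001, 8.22 kb from the start of Tnfrsf23, the strength was 1.13, and all 10 other settings called a boundary within 2 bins. It was above that of the boundary at 150000001 with the 800 kb square (0.802 against 0.669) and with absent bin pairs left out (0.931 against 0.881). Contacts across this bin were 0.837 of those within the flanks (0.732 to 0.954).

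**Figure D2:**
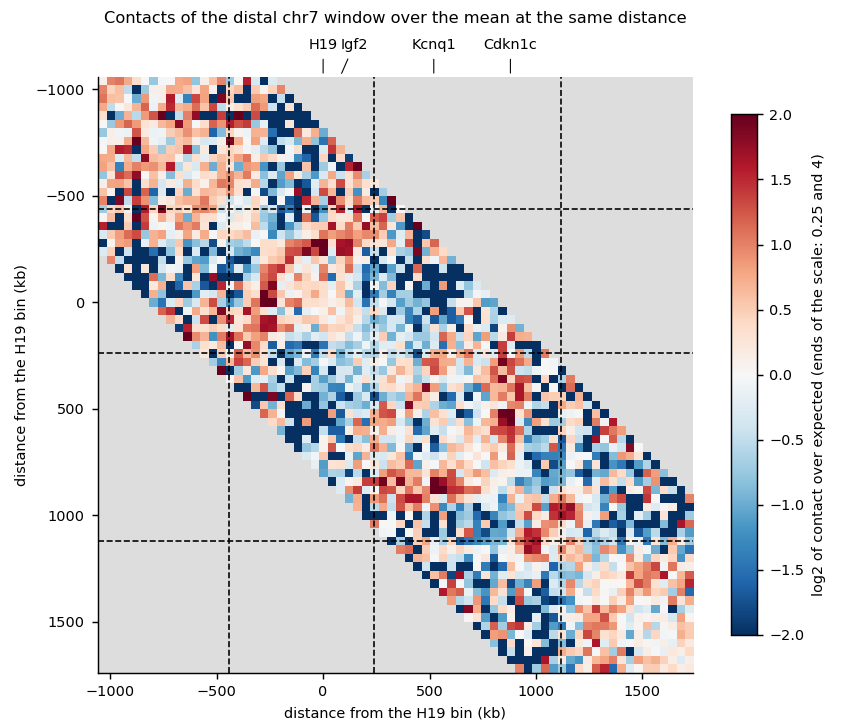
Contact of each pair of 40 kb bins in the distal chr7 window over the mean at the same distance on chr7 (colour, log2 scale with ends at 0.25 and 4), with both axes in kb from the bin of H19. Dashed lines mark the 3 boundaries, grey marks pairs over 800 kb apart, and the darkest blue includes pairs with no read pair. Patches of high contact join H19, Igf2 and Ins2 to the bins 240 and 280 kb to the left of H19, and a stripe runs from Cdkn1c to the start of Kcnq1.

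H19, Igf2 and Ins2 made their most frequent distal contacts with the same stretch inside their domain. H19 (chr7:149761434-149764048, minus strand) contacted the bin 240 kb to its left, which holds the start of 6330512M04Rik and the second plus strand CTCF match shown above, with 44 read pairs, 4.30 times the mean at that distance (3.13 to 5.77). Among chr7 bin pairs at this distance 99.4% were lower. The next bin, 280 kb away, with the keratin-associated protein gene Krtap5-4 and the first of these matches, had 28 read pairs, 4.16 times the mean (2.76 to 6.01). Both bins were of ordinary depth, with 855 and 697 read pairs. Genes of the Krtap5 family resemble one another, which can make the position of reads in the second bin less certain.

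Igf2 (chr7:149836673-149852721, minus strand) contacted these bins 3.29 times (2.22 to 4.69, 30 read pairs) and 3.14 times (1.92 to 4.86, 20 read pairs) as often as the mean at 320 and 360 kb. Ins2 had 3.13 times (27 read pairs) and 3.29 times (20 read pairs) the mean. The bins between, among them those with the troponin genes Tnni2 and Tnnt3 and with Lsp1, had 1.28 to 2.16 times the mean with H19 at distances from 80 to 160 kb, and that of Ctsd, 200 kb away, had 1.19 times. The bins of 6330512M04Rik and Krtap5-4 also had 2.5 and 4.19 times the mean with the bin just left of H19, which holds no listed gene start. With the bin between those of H19 and Igf2 they had 0.85 and 1.26 times. The top bins were picked for their height, so that their values are a description. H19 and Igf2 themselves, 80 kb apart, had 41 read pairs, 1.16 times the mean (0.832 to 1.57), an interval that includes 1.

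The contacts of H19 were one-sided. Over 80 to 480 kb they were 1.93 times the mean towards lower coordinates (1.67 to 2.21, 201 read pairs), the side downstream of H19 and away from Igf2, and 0.903 times towards higher coordinates (0.761 to 1.06, 143 read pairs). Igf2 had 1.56 and 0.693 times the mean, and Ins2 1.55 and 0.661 times. The pattern search found no match to the common CTCF consensus in the bins from 200 kb to the left of H19 to 360 kb to its right, and the 3 sites shown above match only the pattern of the H19 region.

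In the neighbouring domain, Cdkn1c, an inhibitor of cyclin-dependent kinases (chr7:150644255-150646955), stood out. Its bin, shared with the transporter gene Slc22a18, contacted the bin of the Kcnq1 start 360 kb away with 19 read pairs, 5.17 times the mean (3.11 to 8.07), and the bin 320 kb away with 30 read pairs, 5.41 times the mean (3.65 to 7.72). Kcnq1 encodes a potassium channel subunit, and its start bin holds the plus strand CTCF match printed above, whereas the bin 320 kb away, with the highest ratio, and the bin 280 kb away, with 2.77 times the mean, hold 0 matches. Cdkn1c and Kcnq1ot1, 160 kb apart, had 25 read pairs, 2.27 times the mean (1.47 to 3.35). To the left of Cdkn1c contact was 2.20 times the mean (1.92 to 2.52) and to the right 0.715 times (0.560 to 0.898). Nap1l4, a histone chaperone, and Osbpl5, an oxysterol-binding protein gene on the other side of the boundary at 150880001, had 17 read pairs at 200 kb, 3.38 times the mean (1.97 to 5.4), so that frequent contacts also passed over a called boundary. Kcnq1ot1 showed no such side, with 0.958 (0.731 to 1.23) and 1.10 times the mean (0.861 to 1.38).

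**Figure D3:**
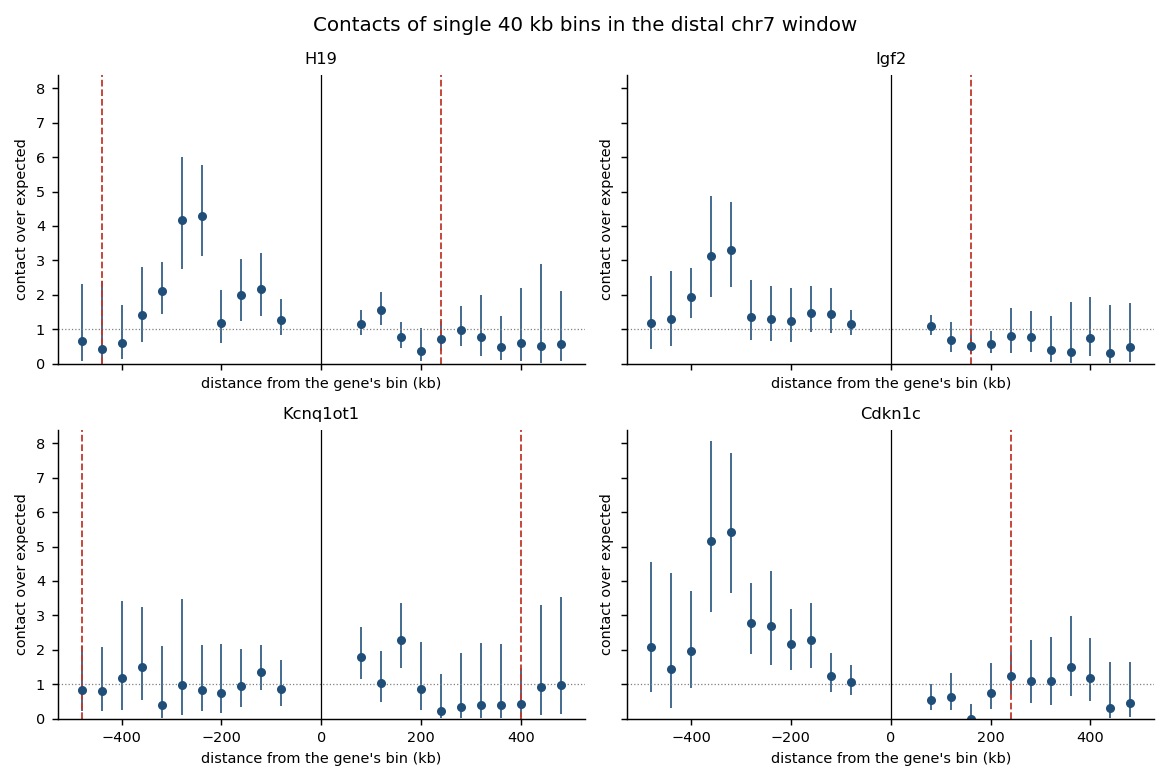
Contact of the bins of H19, Igf2, Kcnq1ot1 and Cdkn1c with each bin 80 to 480 kb away over the mean at that distance (y axis), against the distance (x axis, kb). Points are single bin pairs of the pooled map, bars exact 95% Poisson intervals, red dashed lines boundaries and the dotted line a ratio of 1. H19 peaks at 4.30 and Cdkn1c at 5.41, both to the left, and values to the right of H19 and Igf2 are mostly under 1.

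The Dlk1 and Meg3 cluster of chr12 filled the middle of a large domain. The domain ran from 110000001 to 111720001, measured 1.72 Mb (91.6% of autosomal domains were smaller), and held all 6 listed genes: Dlk1, a Notch-related growth regulator of the paternal copy, the noncoding RNAs Meg3, Rian and Mirg of the maternal copy, the retrotransposon-derived Rtl1, and Dio3, a deiodinase of thyroid hormone. The scores fell along the cluster from 1.06 at Dlk1 and 1.01 at Meg3 to 0.93 at Rian, 0.75 at Mirg and 0.03 at Dio3. Its left boundary, in a bin with the start of Yy1, the gene of a zinc finger factor, had a strength of 2.81, with 77.0% of boundaries weaker, and was not called with the 800 kb square. Contact across it was 0.582 of that within the flanks (0.513 to 0.657).

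The right boundary lay in the bin after the end of the window, with a strength of 1.44 and a contact ratio of 0.855 (0.792 to 0.922). Within the domain contact was 1.33 times the mean, higher than in 82.9% of autosomal domains. Dlk1 and Meg3, 80 kb apart, had 8 read pairs, 1.11 times the mean (0.481 to 2.20). Meg3 contacted the bin 240 kb beyond it most, with 16 read pairs, 3.05 times the mean (1.74 to 4.95). Dlk1 and the bin 480 kb to its right had 9 read pairs, 6.18 times the mean (2.83 to 11.7). Among chr12 bin pairs at this distance 99.7% were lower. This ratio, on few read pairs, was above the 5.41 of Cdkn1c, and both were picked for their height. Over all 13 distinct bin pairs of the cluster, contact was 1.04 times the mean (0.789 to 1.34, 59 read pairs). Around Meg3 contact did not lean to one side, with 1.33 (1.05 to 1.66) and 1.43 times the mean (1.12 to 1.79).

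The Igf2r cluster of chr17 lay in a domain of 1.12 Mb from 12200001 to 13320001, with contact within it at 0.987 times the mean, higher than in 28.2% of autosomal domains. It held Igf2r, its antisense noncoding RNA Airn, and the transporter genes Slc22a2 and Slc22a3. The scores were 0.10 at Slc22a3, 0.25 at Slc22a2, 0.09 at Airn and -0.11 at Igf2r. The left boundary had a strength of 1.71 and the lowest contact ratio of the windows, 0.406 (0.356 to 0.462), and 10.6% of autosomal boundaries had a lower one. The nearest protein-coding start was that of Agpat4, 71.6 kb away, and the boundary was not called with the 800 kb square. The right boundary, in a bin with the start of Unc93a, had a strength of 2.94, but contact across it was 0.975 of that within the flanks (0.822 to 1.15), and it was not called with the mean of the square or the 800 kb square. At least 1 bin within 480 kb of it held no read pair, and with bins under 100 read pairs left out the boundary was still called, with a strength of 2.22. With absent bin pairs left out its strength was 0.779, below the 1.44 of the left boundary.

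The CTCF consensus matches at the edges of this domain all pointed inwards. Within 2 bins of the left boundary there were 2 matches, both on the plus strand, and within 2 bins of the right boundary 4, all on the minus strand. Both left matches and the right match nearest to the boundary bin are shown. At the edges of the chr12 domain the matches pointed outwards, with 1 on the minus strand at the left and 2 on the plus strand at the right. Contact between the 2 edges of the Igf2r domain was 0.435 times the mean (0.118 to 1.11, 4 read pairs), with 9.75% of autosomal domains lower. For the chr12 domain it was 1.05 times (0.424 to 2.17, 7 read pairs), beside a median of 1.15 over autosomal domains.

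chr17:12229243-12229276, plus strand: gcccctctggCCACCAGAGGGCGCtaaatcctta

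chr17:12232218-12232251, plus strand: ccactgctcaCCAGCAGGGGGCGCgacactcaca

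chr17:13368656-13368689, minus strand: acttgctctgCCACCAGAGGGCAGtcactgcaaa

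Igf2r had fewer contacts towards the right boundary, 0.513 times the mean over 80 to 480 kb (0.375 to 0.684, 46 read pairs), than to the left, 1.01 times (0.817 to 1.24, 94 read pairs). Airn and Igf2r, in adjacent bins, had 36 read pairs, 1.29 times the mean (0.903 to 1.78). Slc22a3 and Igf2r, 280 kb apart, had 2 read pairs, 0.238 times the mean (0.0288 to 0.860), 1 of the 3 bin pairs of imprinted genes whose interval lay under 1.

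The Peg3 cluster of proximal chr7 lay to the right of a boundary whose strength depended on the setting. This boundary, in the bin chr7:6120001-6160000 with the starts of Zfp444 and Galp, had a strength of 4.93, with 97.3% of autosomal boundaries weaker, and a score of -2.84. Its strength was 2.47 with the 320 kb square, 2.32 with the mean of the square and 13.6 with the median. The bin chr7:6320001-6360000, 200 kb away, took 98.0% of its corrected signal from 1 bin pair, and with such bins left out the strength was 2.61 and the contact ratio 0.544 (0.446 to 0.657). With all bins, contact across it was 0.632 of that within the flanks (0.523 to 0.758, 117 read pairs). Bins with as few as 2 read pairs lay within 480 kb of it, and the boundary was called with bins under 100 read pairs left out but not with absent bin pairs left out. Peg3, a zinc finger protein, its neighbour Zim1, also a zinc finger gene, and Usp29, a ubiquitin peptidase, had scores of 0.86, 0.71 and 0.50. The GENCODE model of Usp29 starts at 6913871, whereas the RefSeq promoter of this gene matched mm9 with a start at 6683294, next to that of Peg3. By the RefSeq start the gene lies in the bin of Peg3, with its score of 0.86, and the cluster spans 40 kb, at which 92.9% of autosomal bins share a domain.

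Peg3 leaned away from the boundary, with 0.688 times the mean to the left (0.470 to 0.971, 32 read pairs), or 0.727 times (0.494 to 1.03) without the bin at 6320001, and 1.32 times to the right (1.04 to 1.65, 77 read pairs). Its highest contact was with the bin 160 kb to the right, 20 read pairs and 3.62 times the mean (2.21 to 5.6). Beyond 7 Mb the score fell to -12.18. There the squares held as few as 6 read pairs, and for 4 bins of the window the summary of the square was 0 and was set to the lowest value above 0 on the chromosome. No boundary was called before 11880001, so that the interval to it, 5.76 Mb, is not described as a domain.

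**Figure D4:**
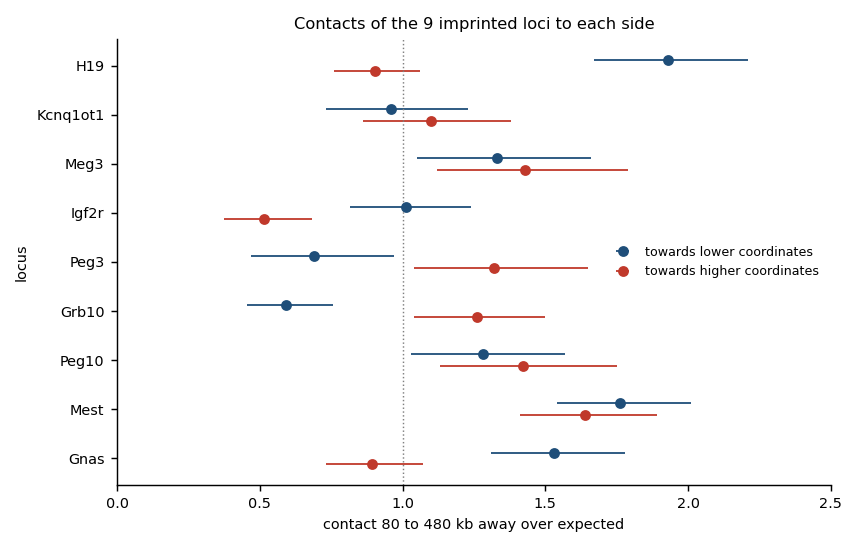
Contact of the bins of the 9 loci with the bins 80 to 480 kb away, over the mean at the same distances (x axis), towards lower coordinates (blue) and higher coordinates (red). Bars are exact 95% Poisson intervals on the read pairs of the pooled map, and the dotted line is a ratio of 1. H19, Igf2r and Gnas leaned to lower coordinates and Peg3 and Grb10 to higher ones, with intervals that do not overlap, whereas those of Kcnq1ot1, Meg3, Peg10 and Mest overlap. How often other autosomal bins lean as much was not counted, so that a lean is not shown to be particular to imprinted loci.

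Grb10, a signalling adaptor that restrains growth, was in a domain of chr11 from 11600001 to 12520001 (0.92 Mb), together with Ddc, the decarboxylase of aromatic amino acids, and Cobl, an actin nucleator. Contact within it was 1.08 times the mean, higher than in 42.5% of autosomal domains. The scores were -0.04 at Ddc, 0.43 at Grb10 and -0.25 at Cobl. The left boundary was 15.0 kb from the start of Ikzf1, with a strength of 1.32 and a contact ratio of 0.722 (0.636 to 0.817), and was not called with the 800 kb square. The right one, with the start of Gm17624, had 1.74 and 0.641 (0.560 to 0.731).

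All 3 bin pairs of these genes had less contact than the mean, together 0.629 times it on 9 read pairs (0.288 to 1.19), too few to set them below 1. Grb10 contacted the left side 0.592 times (0.456 to 0.756) and the right side 1.26 times (1.04 to 1.5) as often as the mean. Its single bin with the highest ratio was nevertheless on the left, 480 kb away, with 9 read pairs and 2.32 times the mean (1.06 to 4.4), and the bins 200 to 280 kb to the right had 1.95 to 2.19 times the mean on 13 to 21 read pairs.

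The Peg10 cluster on proximal chr6 was in a large domain of 2.28 Mb from 3320001 to 5600001, and 97.9% of autosomal domains were smaller. It held Calcr (the calcitonin receptor, whose start lies 1 bin before the window), Tfpi2, Sgce, Peg10, Ppp1r9a, Pon3, Pon2 and Asb4. Contact within it was 1.44 times the mean, higher than in 92.5% of autosomal domains. Scores rose to 1.02 at Peg10 and Sgce, which start in 1 bin, and 1.16 at Ppp1r9a, a neuronal regulator of protein phosphatase 1, and fell to 0.31 at Pon3, 0.18 at Pon2 and 0.02 at Asb4. The right boundary had a strength of 1.81 and a contact ratio of 0.786 (0.718 to 0.860), and all 10 other settings called it within 2 bins. The left one, before the window, had 1.98 and 0.642 (0.521 to 0.784), was not called with the 800 kb square, and had a bin with 0 read pairs within 480 kb.

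Contacts between the genes of this cluster were about as frequent as those of the domain as a whole. Of 14 distinct bin pairs 12 were over the mean, beside 39.3% of all autosomal bin pairs 80 to 1440 kb apart. Together they had 1.65 times the mean (1.35 to 1.99, 106 read pairs), an interval that includes the 1.44 times within the domain. Peg10 and Asb4, 640 kb apart, had 7 read pairs, 3.23 times the mean (1.3 to 6.65). The same value holds for Sgce, the gene of epsilon-sarcoglycan, because of the shared bin. Peg10 contacted both sides alike, 1.28 (1.03 to 1.57) and 1.42 times the mean (1.13 to 1.75). No match to the CTCF consensus was found in the whole window.

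Mest had a domain of 1.12 Mb on chr6 from 30280001 to 31400001, with Copg2, a coatomer subunit, and Klf14, a zinc finger factor. The score was 1.25 at Mest, 0.41 at Copg2 and 0.12 at Klf14. Contact within the domain was 1.46 times the mean, higher than in 93.9% of autosomal domains. The left boundary, 21.0 kb from the start of Zc3hc1, had a strength of 2.5 and a contact ratio of 0.516 (0.452 to 0.586), and the right boundary, 51.3 kb from the start of Mkln1, had 2.59 and 0.776 (0.7 to 0.859). The left one was not called with the 800 kb square, and the right one was lost in 3 of 10 settings, with the 320 kb square, the mean of the square and absent bin pairs left out.

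Mest and Klf14, 240 kb apart, had 17 read pairs, 1.80 times the mean (1.05 to 2.88), and Mest and Copg2, 200 kb apart by their starts, had 23, 1.57 times the mean (0.993 to 2.35). Mest had frequent contacts to both sides, 1.76 (1.54 to 2.01) and 1.64 times the mean (1.41 to 1.89).

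Gnas, which encodes the stimulatory G protein alpha subunit, and Nespas, a noncoding RNA antisense to it, had scores of 0.61 and 0.59. No boundary was called in their window. The nearest on the left was at 172840001, in a bin with the start of Rbm38, with a strength of 1.92 and a contact ratio of 0.626 (0.550 to 0.709), and was not called with the 800 kb square. To the right the score fell to -6.75 at the end of the window, where the squares held as few as 2 read pairs and the summary was 0 in 6 bins, and no boundary was called before 179600001. Gnas contacted the left side 1.53 times (1.31 to 1.78, 166 read pairs) and the right side 0.891 times (0.731 to 1.07, 109 read pairs) as often as the mean. The bin 400 kb to the right took 98.1% of its corrected signal from 1 bin pair, and without it the right side had 0.935 times the mean (0.757 to 1.14, 95 read pairs). Its highest contact was 2.15 times the mean (1.49 to 3.0, 34 read pairs), with the bin of the start of Stx16, a syntaxin gene, 200 kb to the left.

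**Figure D5:**
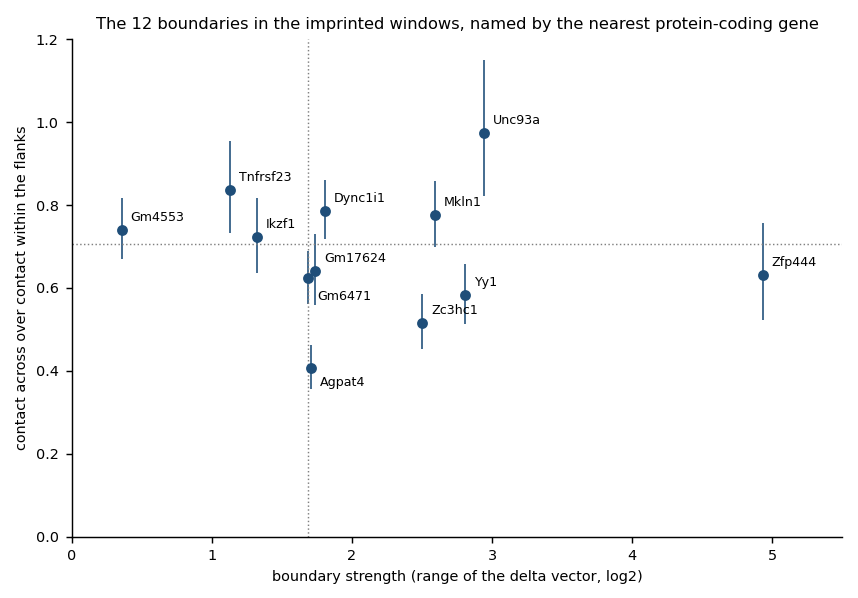
Strength (x axis, log2) of the 12 boundaries in the windows against the ratio of contact across the boundary to contact within its flanks (y axis, distance-corrected). Bars are exact 95% Poisson intervals on the read pairs across, labels give the nearest protein-coding gene (the first where several start in the bin), and dotted lines mark the autosomal medians of 1.69 and 0.705. The boundary at Agpat4 has the lowest ratio, 0.406, and that at Unc93a the highest, 0.975.

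Across the windows the strength of a boundary and the share of contacts that crossed it did not give the same order. The ratio lay under the autosomal median at 6 of the 12 boundaries, those at Agpat4, Zc3hc1, Yy1, Gm6471, Zfp444 and Gm17624, and above it at the others. A CTCF consensus match within 1 bin was found at 5 of the 12, compared with 34.0% of autosomal boundaries and 23.8% of scored autosomal bins.

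The contacts between imprinted genes of the same window were summarised over 123 distinct bin pairs at least 80 kb apart, which stand for 140 gene pairs. Most held few read pairs, with a median of 3 and a highest count of 43, and 11 held none. The median was 1.05 times the mean. Among autosomal bin pairs 80 to 1440 kb apart 39.3% were over the mean at their distance, since a few high values raise a mean. Of the 80 pairs with no boundary between them 50 were over it, with a median of 1.31, and of the 43 with a boundary between them, all in distal chr7, 13 were over it, with a median of 0.655. Boundaries were called from the same contacts, so that this difference is a description of the domains. The interval lay over 1 for 10 pairs and under 1 for 3, beside 5.88% and 2.45% of the autosomal bin pairs at these distances.

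Compartments, the large-scale division of chromosomes into gene-rich active (A) and gene-poor inactive (B) chromatin, were read from the first eigenvector of the distance-corrected map in 200 kb bins, with the sign set so that positive bins have more gene starts. Of the autosomal 200 kb bins 37.9% were positive. The bins of 4 of the 9 loci were positive, Mest with 1.21, H19 with 0.63, Peg10 with 0.34 and Igf2r with 0.04. Peg3 was at -0.01, Kcnq1ot1 at -0.27, Meg3 at -0.64, Gnas at -0.77 and Grb10 at -0.86. The values near 0 give no firm side, and in 400 kb bins Kcnq1ot1 was at 0.10. The windows differed in the same way, with 9 of 10 bins positive around Mest and around Peg10 and 0 of 10 around Grb10, where the values ran from -1.55 to -0.51.

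The sign changed within clusters. In distal chr7 H19 was positive whereas Igf2 and Ins2 in the next bin were at -0.30, Ascl2 and Tspan32 at -0.31, and Cdkn1c, Slc22a18, Phlda2 and Nap1l4 at 0.69. In 400 kb bins H19, Igf2 and Ins2 share 1 bin, at 0.18, and Kcnq1ot1 shares that of Cdkn1c. In chr17 Slc22a2 and Slc22a3 were at -1.15, while Igf2r and Airn were at 0.04. In chr12 all 6 genes were negative, from -0.64 at Dlk1 and Meg3 to -0.39 at Rtl1, Rian and Mirg. The eigenvector tracked gene starts only in part, which is given as a description. Among the chromosomes of the windows the correlation was lowest across the bins of chr2 (0.28) and chr7 (0.36) and highest across those of chr12 (0.55).

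Contacts between windows on different chromosomes were rare. The 26 pairs of windows held 0 to 14 read pairs each. Relative to the mean signal between autosomes, the median of the 26 was 1.01, and 13 were over 1, compared with 37.3% of the pairs of 2 Mb tiles on different autosomes and a tile median of 0.780. Most intervals include 1. Igf2r with Peg3 had the highest ratio, 3.57 (1.54 to 7.03, 8 read pairs), but 47.5% of this signal came from a single bin pair, and with bins under 100 read pairs left out it was 2.34 (0.943 to 4.83, 7 read pairs). Grb10 with Mest had 1 read pair and a ratio of 0.112 (0.00284 to 0.624), and Igf2r with Gnas had 0 read pairs. On the same chromosome, the windows of Peg10 and Mest, 26 Mb apart, had 178 read pairs, 0.895 times the mean at their distances (0.769 to 1.04), and those of Peg3 and H19 had 16, 1.6 times (0.916 to 2.6), or 1.84 times (1.05 to 2.99) with bins under 100 read pairs left out.

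The windows were unlike one another in sequence. GC content was 48.1% in distal chr7, higher than in 95.8% of the 1179 autosomal 2 Mb tiles, 46.6% around Meg3 and 46.0% around Igf2r, but 40.3% around Peg10 and 40.8% around Grb10, beside a median tile of 41.7%. Protein-coding starts were densest in both chr7 windows, with 19.6 per Mb each, beside a median of 6, and sparsest around Grb10 with 5 per Mb. CTCF consensus matches ran from 0 around Peg10 and 1.00 per Mb around Grb10 to 7.50 per Mb around Igf2r and 7.86 in distal chr7, beside a median of 2.00. HindIII sites, at which the chromatin was cut, numbered 10.6 per bin in distal chr7, fewer than in most tiles (6.53% had fewer), and 14 around Grb10, beside a median of 13. Contact 200 kb to 1 Mb apart is given beside the density of CTCF matches with no measure of their relation. It was 1.47 times the mean in the Peg10 window, with no match, and 0.863 times around Grb10, with 1 per Mb. Among the windows rich in matches it was 1.29 times around Meg3, 1.1 times in distal chr7 and 0.896 times around Igf2r. It was 1.27 times around Mest, with 4 matches per Mb, 0.82 times around Peg3, with 3.92, and 1.07 times around Gnas, with 1.5. The part of base composition and HindIII sites in these values was not tested.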

How the data were processed

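Hi-C libraries of C2C12 cells were sequenced by the authors in 2 replicates, which they pooled, mapped to mm9 with HiC-Pro 2.7.8, counted in 40 kb bins and corrected iteratively. The deposited values are this corrected contact signal per bin pair. The ends of all 22 listed chromosomes were checked against the mm9 sequence and were equal. A deposited value is a whole number of read pairs times 1 factor per bin for 99.997% of the bin pairs (tolerance 0.01), which gave 23990818 read pairs. The interquartile mean of a 480 kb square, smoothing over 5 bins, a 320 kb delta vector and a noise threshold of 0 gave boundaries, written anew after the options of the study; bin pairs absent from the matrix counted as 0, and squares needed 50% of their bin pairs in bins with contacts. Expected contact was the mean at each distance on the chromosome. On 1 simulated map 44 of 48 boundaries were called within 1 bin, and 46 of 49 calls were within 1 bin of a simulated one. The simulated domains were set off more sharply than at the median autosomal boundary, and no bin was empty. These rates may therefore not hold for the real map.

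The 8 windows, the list of 45 imprinted genes and the CTCF patterns were chosen with earlier results of these data known. The genes named are that list, the nearest protein-coding gene to each boundary, and, picked after their values were seen, genes in the bins with the highest contacts. Since the map is 1 pooled sample, no test was made. Alternatives were other squares, summaries, smoothing, delta vectors and strength limits, and, added after seeing the data, leaving out bins under 100 read pairs and bins with over 50% of their corrected signal in 1 bin pair (204 on the autosomes). The count of clusters crossed by a boundary was also added after seeing the data. The RNA table and the fibroblast samples were not used here. Python 3.11.15, NumPy 2.4.6, SciPy 1.17.1, pandas 2.3.3 and matplotlib 3.10.9 were used.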

Additional observations from a re-analysis of the deposited data

How the results depend on the processing

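Over the alternatives for boundaries, the windows held 9 (square of 800 kb) to 17 (square of 320 kb) boundaries in place of 12, and none of the 9 loci came within 1 bin of a boundary in any of them, or within 2 bins with the reported settings. Between 8 and 9 loci had scores above the autosomal median. The clusters of 3 windows in place of 1 were crossed with the 320 kb square, and 1 was in each of the other settings. The score fell to -0.13 at Peg3 with the 800 kb square and to -0.10 at H19 with absent bin pairs left out. Bin pairs of imprinted genes over the mean numbered 63 of 123, 62 with the expected contact of all autosomes and 63 from read pairs without the correction. The lower ratios at boundaries numbered 7 in place of 6 with the expected contact of all autosomes, positive loci 5 in place of 4 with 400 kb bins, when Kcnq1ot1 was at 0.10, and window pairs over 1 numbered 11 scaled by their own totals and 14 without bins under 100 read pairs, in place of 13. No paired analysis was possible because the replicates were pooled in the deposited matrix. For the same reason no library could be left out. Single bin pairs of imprinted genes held a median of 3 read pairs, so that depth limits what they can show.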
